A study of Mus musculus with 18 samples.

Results

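The comparison asked how LSK cells of mice that had once been irradiated differed from those of control mice after culture in the presence of DL1. DL1, an abbreviation that the labels do not spell out, is read here as Delta-like 1, a ligand of Notch receptors. LSK cells are bone marrow cells without lineage markers that carry cKit and Sca1, a population that holds hematopoietic stem cells and multipotent progenitors. The comparison covers the genes with a mean of at least 1 FPKM (fragment numbers corrected for the length of the transcript and the size of the library) over the 6 cultures with DL1, which kept 11960 of 25629 listed gene names.

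All mice were C57Bl/6. The 3 irradiated cultures with DL1 came from mice that had received a sublethal dose of 2.5 Gy from a cesium source and had recovered for at least 9 weeks, and the 3 control cultures with DL1 came from mice that had not. Each culture began with 200 LSK cells of 1 mouse, ran for 6 days with the cytokines SCF, Flt3L, IL-11 and IL-6, and was sorted once more for LSK cells before RNA sequencing. The 3 irradiated and 3 control cultures without DL1 were grown and sorted in the same way. These 12 libraries are part of a series of 18, and the other 6 came from freshly sorted cells. The labels do not say how DL1 was presented to the cells, which limits what the cultures model, nor whether cultures with and without DL1 shared a mouse.

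Notch receptors are cut after they bind a Delta-like or Jagged ligand, and the freed intracellular part joins the DNA-binding protein RBPJ to switch on genes such as Hes1. In blood progenitors Notch signalling favours the T lineage and can hold back myeloid differentiation. C/EBPα, the transcription factor that the series title sets against Notch, drives progenitors toward granulocytes and monocytes, with its relative C/EBPε acting later in granule formation.

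Relative depth, read from the size of the lowest FPKM values, lay between 0.756 and 1.09 of the first control culture without DL1, except in irradiated replicate 2 with DL1 at 0.488. Between 16879 and 17613 names were above 0 in a library. Libraries of the same group with DL1 correlated across genes at r between 0.9935 and 0.9967 on the log2(FPKM + 1) scale, and irradiated with control libraries at r between 0.9897 and 0.9945. The sort marker genes were present, Ly6a (Sca1) at 580 to 601 FPKM in irradiated against 589 to 604 FPKM in control cultures with DL1. Kit stood at 31.6 to 36.4 FPKM in irradiated and 38.1 to 40.2 FPKM in control cultures (-0.18 ± 0.073 on the log2 scale, adjusted p = 0.208). The Notch target gene Hes1 was at 1.77 to 3.27 FPKM over the 6 cultures with DL1 and at 0.361 to 0.807 FPKM over the 6 without. Of 22 early T lineage genes, 12 were under 1 FPKM in all 6 cultures with DL1 and none was at 0 in all 6, Cd3g standing at 1.11 to 1.31 FPKM in irradiated and 1.38 to 1.90 FPKM in control cultures. The part of T lineage cells in the results was not tested. In bulk samples such as these, a lower level from fewer cells of a type and from less RNA per cell cannot be told apart.

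Irradiated cultures with DL1 carried more transcripts of most genes tested of the early granulocyte granule list. They also carried more of 8 of 14 late neutrophil granule and alarmin genes and of 6 of 25 monocyte and macrophage genes. Transcripts of 5 of 28 stem cell genes were fewer. The lists were chosen with earlier results of these data known. Of the 11960 genes, 374 (3.13%) passed at an adjusted p under 0.05 in limma. Of these, 296 (2.47%) rose and 78 (0.652%) fell. The changes were mostly moderate. The median log2 fold change was 0.49 among the genes that rose, with 137 at 0.5 or more and 13 at 1 or more. Among the genes that fell it was -0.40, with 28 at -0.5 or below and none of the 78 reaching -1 (the largest fall was 0.98). Over all tested genes the median was -0.018, and 44.1% of genes were above 0. The irradiated and control cultures did not overlap for any of the 374, and they did not overlap for 32.8% of all genes. Without adjustment, 2213 genes (18.5%) had p under 0.05.

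The number of genes called fell when any single library was left out, which also makes 1 group smaller. It was 115 without control replicate 1, 130 without control replicate 3, 130 without irradiated replicate 1 and 106 without irradiated replicate 2, and 253 and 283 without control replicate 2 and irradiated replicate 3. Genes that fell were 33 without control replicate 2 and 49 without irradiated replicate 3. Of the 374 genes, 88 (79 higher and 9 lower) passed without each of the 6 libraries in turn, and 69 passed without none of them. When the fit held the 6 cultures with DL1 alone, 997 genes passed (652 higher and 345 lower), among them 357 of the 374. List counts given below for that fit stand beside these totals over 11960 genes, not beside 3.13%. Changes are given below as log2 fold changes, irradiated over control, ± standard error for log2(FPKM + 1), with limma's adjusted p over all tested genes. With 3 cultures against 3, an exact permutation test of a single gene cannot give a p below 0.1.

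The gene that rose the most was Ngp, which encodes a protein of neutrophil secondary granules. It stood at 34.0, 38.6 and 23.5 FPKM in the irradiated cultures, against 7.43, 8.17 and 9.77 FPKM in the controls (1.78 ± 0.21, adjusted p = 0.00245). Every irradiated culture was above every control. Thbs1, the gene of the adhesive glycoprotein thrombospondin 1, was at 118, 134 and 106 FPKM in irradiated and at 42.0, 59.2 and 48.0 FPKM in control cultures (1.25 ± 0.16, adjusted p = 0.00310). The calprotectin gene S100a8 had 766, 841 and 541 FPKM in irradiated cultures and 311, 290 and 357 FPKM in controls (1.14 ± 0.18, adjusted p = 0.00735). Its partner S100a9 had 578, 643 and 442 FPKM against 245, 213 and 273 FPKM in controls (1.17 ± 0.20, adjusted p = 0.00935). Irradiated replicate 3 was the lowest of the irradiated cultures for Ngp, Thbs1, S100a8 and S100a9, and still above all controls. The other genes among the 15 with the highest fold changes, beside Gpnmb, C1qb, C1qc and Elane, encode ficolin B (Fcnb, 1.19), the chitinase-like lectin (Chil3, 1.20), an acute phase protein (Saa3, 1.15), a monocyte surface antigen (Ly6c2, 1.09), complement component 3 (C3, 0.998), a lectin receptor (Clec4a3, 1.01) and a small secreted protein (Wfdc21, 0.99). All 15 also rose in cultures without DL1, where 13.1% of all tested genes rose.

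Not all of these calls held when 1 library was left out. Those of Ngp, Thbs1, Gpnmb, S100a8, Ly6c2, Elane and C3 passed without each of the 6 libraries in turn. S100a9 was lost without irradiated replicate 2 (adjusted p = 0.0569). Chil3 was lost without control replicate 1 or 2 or irradiated replicate 1 or 2 (adjusted p up to 0.141), Fcnb without any single library but irradiated replicate 3 (up to 0.169), and Saa3 without control replicate 1 or 3 or irradiated replicate 1 or 2 (up to 0.101). Wfdc21 was lost without control replicate 2 or 3 or irradiated replicate 1 or 2 (up to 0.0830), and Clec4a3 without any single library but control replicate 2 (up to 0.150).

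**Figure D1:**
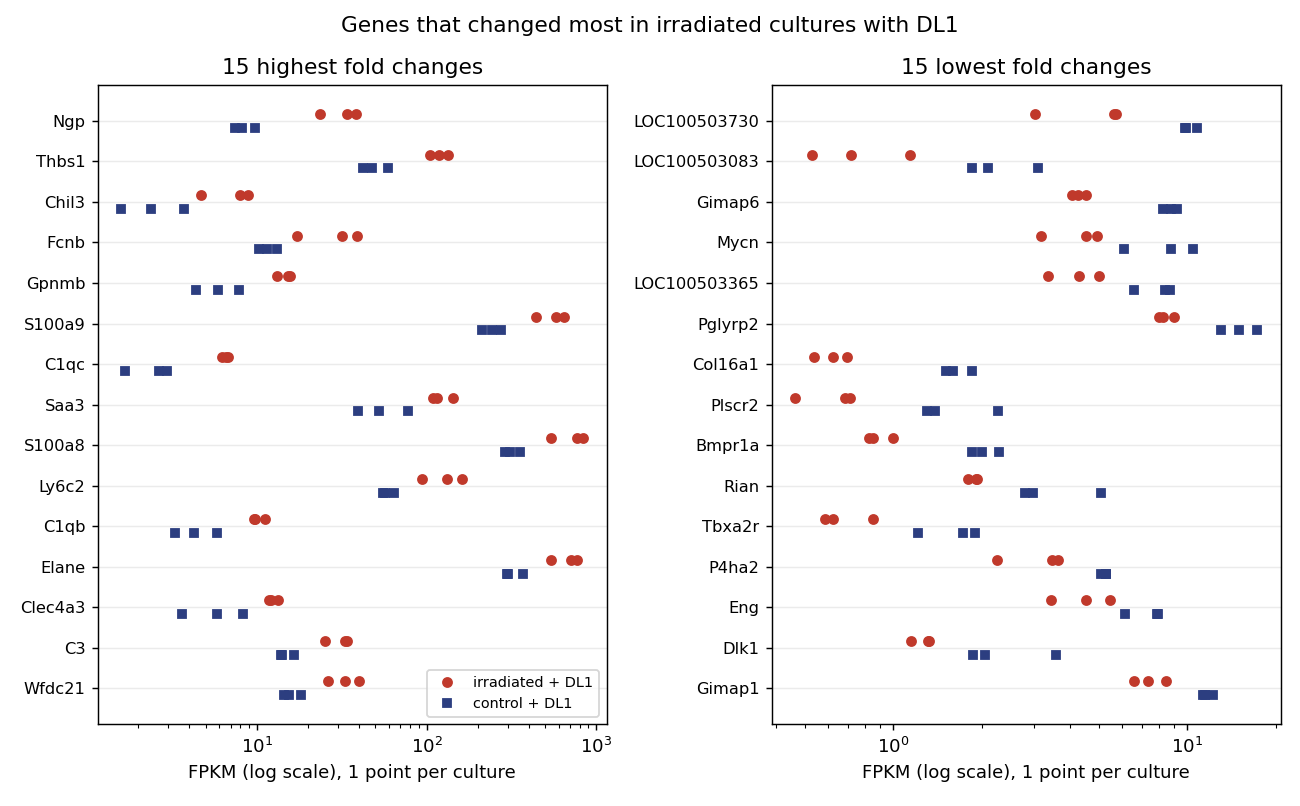
FPKM (log axis) in each culture with DL1 for the 15 genes with the highest and the 15 with the lowest log2 fold change among genes that passed without overlap of the groups, 1 point per culture. Irradiated cultures lie to the right of controls on the left panel (Ngp at 23.5 to 38.6 against 7.43 to 9.77 FPKM) and to the left of them on the right panel (Gimap6 at 4.05 to 4.53 against 8.31 to 9.23 FPKM).

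Promoter windows from RefSeq on the GRCm38.p6 build, 250 bases before to 50 after the start of each gene, were searched for the C/EBP motif TTGCNNAA and for the RBPJ motif GTGGGAA on both strands, since these are the 2 factors the series title names or implies. Over the 27025 genes of that table, 10.8% of windows held the first and 6.39% the second. Of the 15 genes with the highest fold changes 13 had a window, 5 of which held a C/EBP match (Ngp, Fcnb, S100a9, Saa3 and C3) and 0 an RBPJ match. No share is given for the 15 genes with the lowest fold changes or for all genes that rose, since fewer than 80% of either had a window. Matches among them are therefore not read as a result. A match is a stretch of letters and no evidence of binding, and binding was not measured. The 250 bases before the start are shown for the 3 genes with the highest fold changes among those with a match, with the C/EBP matches in capitals. Of the 15 genes with the lowest fold changes 11 had a window, and 1 of these held an RBPJ match. Pglyrp2, the only one of them in which a C/EBP match was found, is also shown.
Ngp (chr9:110419558-110419807, plus strand): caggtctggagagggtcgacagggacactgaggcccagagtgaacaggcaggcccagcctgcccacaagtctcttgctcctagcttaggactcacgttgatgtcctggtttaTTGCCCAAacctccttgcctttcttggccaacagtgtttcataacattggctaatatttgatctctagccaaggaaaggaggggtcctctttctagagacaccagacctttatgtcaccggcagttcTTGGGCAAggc
Fcnb (chr2:28084879-28085128, minus strand): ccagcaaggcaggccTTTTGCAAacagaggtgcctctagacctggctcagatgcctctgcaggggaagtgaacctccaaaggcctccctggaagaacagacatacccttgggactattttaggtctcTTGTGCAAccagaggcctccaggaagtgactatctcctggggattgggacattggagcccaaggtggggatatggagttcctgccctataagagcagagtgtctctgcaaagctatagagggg
S100a9 (chr3:90695722-90695971, minus strand): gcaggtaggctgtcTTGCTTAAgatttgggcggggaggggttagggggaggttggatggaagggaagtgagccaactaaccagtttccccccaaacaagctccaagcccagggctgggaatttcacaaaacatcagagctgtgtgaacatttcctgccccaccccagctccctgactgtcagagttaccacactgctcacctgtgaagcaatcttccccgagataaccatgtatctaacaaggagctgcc
Pglyrp2 (chr17:32420976-32421225, minus strand): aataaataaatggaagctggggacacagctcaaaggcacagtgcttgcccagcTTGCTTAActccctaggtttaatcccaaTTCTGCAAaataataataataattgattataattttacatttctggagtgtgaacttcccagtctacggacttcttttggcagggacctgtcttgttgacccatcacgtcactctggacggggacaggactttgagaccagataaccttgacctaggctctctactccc

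Of the 7 C/EBP family genes, all tested, 3 rose and 0 fell, against 3.13% of all genes called. Cebpe stood at 29.3, 30.3 and 20.1 FPKM in irradiated cultures and at 15.5, 13.1 and 15.7 FPKM in controls (0.79 ± 0.14, adjusted p = 0.0144). Cebpa stood at 50.1, 57.6 and 66.0 FPKM in irradiated and at 44.0, 44.3 and 41.1 FPKM in control cultures (0.41 ± 0.083, adjusted p = 0.0226). Cebpd, a relative induced by cytokines, had 16.3, 17.95 and 21.9 FPKM in irradiated cultures and 13.6, 13.97 and 11.9 FPKM in controls (0.47 ± 0.093, adjusted p = 0.0202). None of the 3 had overlapping groups, but the order of the irradiated cultures differed, with replicate 3 the highest for Cebpa and Cebpd and the lowest for Cebpe. Cebpb, a relative that acts in emergency granulopoiesis, was at 20.7, 23.4 and 52.2 FPKM in irradiated cultures and at 17.5, 19.6 and 18.1 FPKM in controls and did not pass (0.65 ± 0.25, adjusted p = 0.186). The count of 3 was 1 without control replicate 1 or control replicate 3 and 0 without irradiated replicate 2. Cebpe was lost without irradiated replicate 1 or 2 (adjusted p up to 0.0774), Cebpd without control replicate 1 or 3 or irradiated replicate 2 (up to 0.0950), and Cebpa without those 3 or irradiated replicate 3 (up to 0.101). In cultures without DL1, 2 of the 7 rose and 1 fell, against 13.1% and 15.8% of all genes.

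Genes of the early granulocyte granule list, which also holds genes of other functions such as Gfi1, were higher as a group. The members were chosen with earlier results of these data known. Of 15 tested, 13 rose and 0 fell, against 2.47% and 0.652% of all genes. All 15 were above 0 and their median was 0.59, against a median of -0.018 over all genes. Elane, the neutrophil elastase gene, stood at 709, 767 and 543 FPKM in irradiated cultures and at 299, 301 and 369 FPKM in controls (1.05 ± 0.14, adjusted p = 0.00448). Gfi1, a repressor that promotes granulocyte over monocyte fate, had 24.9, 26.7 and 21.98 FPKM in irradiated cultures and 13.7, 13.9 and 15.4 FPKM in controls (0.73 ± 0.10, adjusted p = 0.00448). Mpo, the myeloperoxidase gene and one of the most abundant of the list, had 1719, 1814 and 1564 FPKM in irradiated cultures and 1003, 1100 and 1049 FPKM in controls (0.69 ± 0.10, adjusted p = 0.00530). Groups were apart for each of these genes. The protease gene Ctsg rose too (0.60 ± 0.096, adjusted p = 0.00748), and Elane, Gfi1, Mpo and Ctsg passed without each library in turn. The sum over the list was 5923 to 7190 FPKM in irradiated cultures and 4116 to 4496 FPKM in controls. The count of 13 was 7 without control replicate 1, 7 without control replicate 3, 7 without irradiated replicate 1 and 6 without irradiated replicate 2.

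Of the 14 tested genes of late neutrophil granules and alarmins, 12 were above 0 and the median was 0.63. In this list 8 rose and 0 fell, against 2.47% and 0.652% of all genes. Beside Ngp, S100a8 and S100a9 these included Lcn2, whose product lipocalin 2 binds bacterial siderophores, at 88.7, 92.1 and 84.1 FPKM in irradiated and 58.3, 61.6 and 55.9 FPKM in control cultures (0.58 ± 0.055, adjusted p = 8.78e-04). Anxa1, the annexin A1 gene, rose as well (0.61 ± 0.086, adjusted p = 0.00467). Both passed without each library in turn, and the count of 8 was 4 without irradiated replicate 2. The sum over the list was 1734 to 2388 FPKM in irradiated and 1149 to 1200 FPKM in control cultures.

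Monocyte and macrophage genes were tested for 25 of 30 entries, of which 24 were above 0, with a median of 0.57. Of the 25, 6 rose and 0 fell, against 2.47% and 0.652% of all genes. Gpnmb, a transmembrane glycoprotein gene of lysosomes and macrophages, stood at 13.2, 15.2 and 15.8 FPKM in irradiated cultures and at 4.37, 7.83 and 5.90 FPKM in controls (1.19 ± 0.20, adjusted p = 0.00885). The lipoprotein gene Apoe had 36.8, 39.7 and 43.8 FPKM in irradiated cultures and 19.5, 23.6 and 21.1 FPKM in controls (0.88 ± 0.18, adjusted p = 0.0236). C1qc, a chain of the first complement component, had 6.55, 6.25 and 6.77 FPKM in irradiated cultures and 1.67, 2.64 and 2.94 FPKM in controls (1.16 ± 0.24, adjusted p = 0.0228). No control reached an irradiated culture for these 3 genes. C1qb (1.06 ± 0.23, adjusted p = 0.0314) and the lipid-sensing receptor gene Trem2 (0.97 ± 0.19, adjusted p = 0.0164) rose as well. The sum over the list was 1248 to 1404 FPKM in irradiated and 982 to 1073 FPKM in control cultures. No gene of the list was at 0 in all 6 cultures, and 5 were under 1 FPKM in all 6. The part of macrophages in the myeloid results was not tested.

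Fewer macrophage genes were called when 1 library was left out, which also makes 1 group smaller. In each of these fits 24 of the 25 were above 0, with medians from 0.442 to 0.619. The count of 6 was 1 without control replicate 1, irradiated replicate 1 or irradiated replicate 2 and 2 without control replicate 3 or irradiated replicate 3, and 4 without control replicate 2. Gpnmb passed without each library in turn (adjusted p up to 0.0491). Apoe and C1qc were lost without any single library but control replicate 2, C1qb without any but control replicate 3, and Trem2 without control replicate 1 or 3 or irradiated replicate 1 or 2, with adjusted p up to 0.110, 0.111, 0.144 and 0.0805. In the fit on the 6 cultures with DL1 alone 19 of the 25 rose, against 652 of all 11960 genes.

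Lysosomal genes, which macrophages express strongly, were above 0 for 25 of 26 (median 0.24). Against 2.47% of all genes, 3 of the 26 rose. These were the granule tetraspanin gene Cd63 (0.49 ± 0.073, adjusted p = 0.00665), the progranulin gene Grn (0.50 ± 0.10, adjusted p = 0.0230) and the sialidase gene Neu1 (0.36 ± 0.077, adjusted p = 0.0311). Grn was lost without any 1 of the 6 libraries (adjusted p up to 0.106) and Neu1 without any but irradiated replicate 3 (up to 0.129), so that the count of 3 was 2 without irradiated replicate 3 and 1 without any other library. In the fit on the 6 cultures with DL1 alone 15 of the 26 rose (14 with the replicate block), and 16 with array weights. Over all 11960 genes 652 rose in that fit, 414 with the block and 974 with array weights. Of the 22 cytokine receptor genes tested, 3 rose and 1 fell, against 2.47% and 0.652% of all genes. The interferon gamma receptor gene Ifngr1 had 99.2, 109 and 94.2 FPKM in irradiated and 68.6, 76.3 and 69.1 FPKM in control cultures (0.49 ± 0.076, adjusted p = 0.00733). The TNF receptor gene Tnfrsf1b (0.43 ± 0.069, adjusted p = 0.00748) and Csf2ra, which binds GM-CSF (0.53 ± 0.10, adjusted p = 0.0162), rose with it, whereas the interleukin-1 receptor gene Il1r1 fell (-0.38 ± 0.082, adjusted p = 0.0303). Csf2ra was lost without control replicate 1 or 3 or irradiated replicate 1 or 2 (adjusted p up to 0.0778) and Il1r1 without any single library but control replicate 2 (up to 0.131). Of the 22, 8 rose and 2 fell in the fit on the 6 cultures alone.

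Some metabolic genes known from myeloid cells rose too. Hk3, the hexokinase of myeloid cells, had 62.3, 69.3 and 61.8 FPKM in irradiated cultures and 33.2, 39.5 and 31.8 FPKM in controls (0.87 ± 0.075, adjusted p = 7.53e-04, and up to 0.00875 without 1 library). Slc2a3, a glucose transporter gene, fell to 62.1, 69.7 and 70.9 FPKM in irradiated cultures, against 90.1, 102 and 89.4 FPKM in controls (-0.47 ± 0.084, adjusted p = 0.0136, and 0.0589 without irradiated replicate 1). These were the calls among 22 glycolysis and glucose uptake genes, of which 18 were below 0 (median -0.079). Over all tested genes 2.47% rose and 0.652% fell. Of 29 glutathione, antioxidant and Nrf2 target genes 3 rose, all glutathione transferases. Gstm1 had 100, 110 and 95.4 FPKM in irradiated cultures and 58.6, 63.4 and 58.0 FPKM in controls (0.75 ± 0.088, adjusted p = 0.00245). Mgst2 (0.73 ± 0.093, adjusted p = 0.00383) and Mgst1 (0.63 ± 0.087, adjusted p = 0.00448) followed, and the 3 genes passed without each library in turn. The median of the list was -0.010, and 14 of the 29 were above 0. Fitted on the 6 cultures alone, 5 rose and 1 fell, against 652 and 345 of all 11960 genes.

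Stem cell regulators and surface genes were tested for 28 of 43 entries, of which 5 fell and 0 rose, with 5 above 0 and a median of -0.19. Over all tested genes 0.652% fell and 2.47% rose. Cd34, a surface glycoprotein gene of progenitors, stood at 196, 203 and 212 FPKM in irradiated cultures and at 270, 274 and 270 FPKM in controls (-0.41 ± 0.067, adjusted p = 0.00782). Mycn, a Myc family gene, had 4.93, 3.19 and 4.52 FPKM in irradiated cultures and 8.81, 6.12 and 10.5 FPKM in controls (-0.85 ± 0.17, adjusted p = 0.0213). Angpt1, which encodes the ligand of the receptor Tek, had 10.7, 9.63 and 10.98 FPKM in irradiated cultures and 15.6, 16.4 and 15.6 FPKM in controls (-0.56 ± 0.11, adjusted p = 0.0226). The groups were apart for each of the 3. The pseudokinase gene Ptk7 fell (-0.40 ± 0.073, adjusted p = 0.0139), and so did the homeobox gene Meis1 (-0.40 ± 0.085, adjusted p = 0.0309), named after its values were seen. Cd34 alone of the 5 passed without each library in turn. The count was 2 without control replicate 1, 1 without control replicate 3, 3 without irradiated replicate 1 and 1 without irradiated replicate 2, and 8 fell in the fit on the 6 cultures alone. The sum over the list was 1193 to 1241 FPKM in irradiated and 1346 to 1356 FPKM in control cultures.

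Among the other genes that fell most, Gimap6, a GTPase gene of immune cells, had 4.05, 4.25 and 4.53 FPKM in irradiated cultures and 8.31, 9.23 and 8.84 FPKM in controls (-0.89 ± 0.15, adjusted p = 0.00802). Its relative Gimap1 was lower as well (-0.58 ± 0.13, adjusted p = 0.0340). Bmpr1a, a receptor gene for bone morphogenetic proteins, had 0.853, 0.996 and 0.824 FPKM in irradiated cultures and 2.29, 2 and 1.85 FPKM in controls (-0.69 ± 0.087, adjusted p = 0.00383). Col16a1, a collagen gene, fell too (-0.71 ± 0.11, adjusted p = 0.00733). The co-receptor gene Eng (-0.61), the peptidoglycan amidase gene Pglyrp2 (-0.77), the scramblase gene Plscr2 (-0.70), the thromboxane receptor gene Tbxa2r (-0.62), the prolyl hydroxylase gene P4ha2 (-0.61) and the uncharacterised LOC100503730 (-0.98), LOC100503083 (-0.90) and LOC100503365 (-0.78) were in the same set, with adjusted p between 0.00735 and 0.0364.

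Gimap6, Bmpr1a, Col16a1 and LOC100503083 passed without each library in turn. Gimap1 was lost without any single library but irradiated replicate 3, Pglyrp2 without any but control replicate 2, and P4ha2 without any 1 of the 6. Eng was lost without control replicate 1 or 2 or irradiated replicate 1 or 2, Tbxa2r and LOC100503365 without control replicate 1 or 3 or irradiated replicate 1 or 2, Plscr2 without control replicate 1 or irradiated replicate 1 or 2, and LOC100503730 without any 1 control. The adjusted p of these genes reached at most 0.151.

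Of the 15 genes that fell most, 8 also fell in cultures without DL1, where 15.8% of all tested genes fell. Rian and Dlk1 were not among the 8. Their changes without DL1 were 0.044 (adjusted p = 0.853 in limma) and -0.141 (adjusted p = 0.493). Rian, a non-coding RNA gene of the imprinted Dlk1 locus, had 1.79, 1.92 and 1.92 FPKM in irradiated cultures and 2.81, 2.98 and 5.09 FPKM in controls (-0.65 ± 0.15, adjusted p = 0.0372). Dlk1, an imprinted Delta-like gene, had 1.33, 1.15 and 1.31 FPKM in irradiated cultures and 1.87, 2.05 and 3.57 FPKM in controls (-0.60 ± 0.14, adjusted p = 0.0462). Control replicate 3 was the highest for both. Rian was lost without control replicate 3 or any 1 irradiated replicate (adjusted p up to 0.121), Dlk1 without any single library but control replicate 1 (up to 0.169), and both in the fit on the 6 cultures alone (adjusted p = 0.0531 for Rian and 0.0672 for Dlk1).

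Among Notch pathway genes 1 passed between irradiated and control cultures with DL1, where 3.13% of all genes did. Of 17 receptor, ligand, fringe and processing genes none passed in limma, 4 had an unadjusted p under 0.05, against 18.5% of all genes, and 13 were above 0 (median 0.073). Fitted on the 6 cultures alone, 2 of the 17 fell, against 345 of all 11960 genes. Notch1 stood at 9.97, 10.3 and 9.81 FPKM in irradiated and at 9.33, 9.10 and 8.99 FPKM in control cultures (0.12 ± 0.091, adjusted p = 0.499). Of 11 targets and nuclear effectors 3 were above 0 (median -0.105), 4 had an unadjusted p under 0.05 and 1 rose. The gene that rose was Dtx4, a Deltex ubiquitin ligase gene, with 12.97, 13.8 and 12.95 FPKM in irradiated and 9.19, 10.04 and 9.36 FPKM in control cultures (0.44 ± 0.070, adjusted p = 0.00748). The others of the 4, Hes1, Myc (-0.25) and Nrarp (-0.31), were lower in irradiated cultures and did not pass in limma. Hes1 had 2.58, 1.77 and 1.84 FPKM in irradiated and 3.03, 2.55 and 3.27 FPKM in control cultures, with overlapping groups (-0.37 ± 0.12, adjusted p = 0.129). Dtx1, another Notch target, lay below the filter at 0.259 to 0.563 FPKM in irradiated and 0.313 to 0.525 FPKM in control cultures. None of the 9 tested early T lineage genes passed in limma, 3 had an unadjusted p under 0.05 and 3 were above 0 (median -0.24). Lck, the T cell kinase gene, had the smallest p of these, at 3.15, 2.11 and 2.14 FPKM in irradiated and 3.61, 3.24 and 4.64 FPKM in control cultures (-0.48 ± 0.14, adjusted p = 0.0931).

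**Figure D2:**
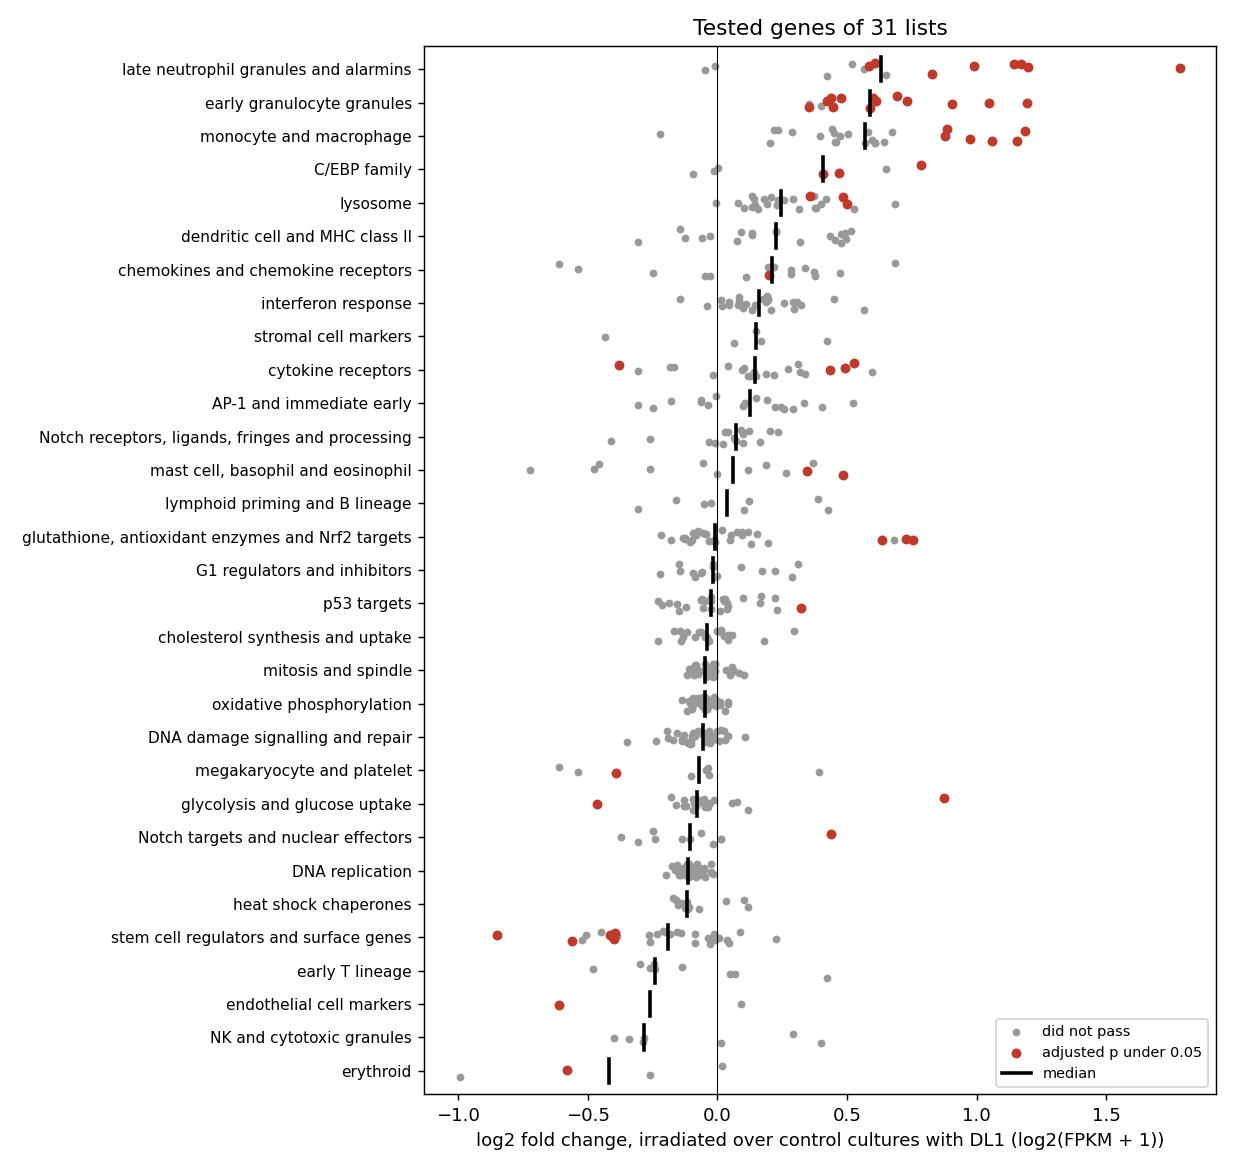
Log2 fold changes (x axis, irradiated over control cultures with DL1) of the tested genes of 31 lists, 1 point per gene, with genes at adjusted p under 0.05 in red and the median of each list as a black bar. The late neutrophil, early granulocyte and macrophage lists have the highest medians (0.63, 0.59 and 0.57), and the DNA replication genes all lie below 0 (median -0.11).

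Genes of DNA replication and mitosis did not pass in limma in cultures with DL1, 0 of 39 and 0 of 37 (4 and 0 at an unadjusted p under 0.05), although in the same fit 29 of each fell in cultures without DL1. Of all tested genes, 3.13% passed with DL1 and 15.8% fell without. All 39 replication genes were below 0 with DL1 (36 with median-ratio scaling between libraries), at a median of -0.11 against -0.25 without DL1. For 29 of the 39 the irradiated cultures with DL1 lay below the controls without overlap, against 17.6% of all genes. Fitted on the 6 cultures with DL1 alone, 3 of the 39 fell, against 345 of all 11960 genes. The mitosis genes had a median of -0.047 with DL1 and of -0.32 without. Mki67, a proliferation marker gene, had 90.6, 94.8 and 89.8 FPKM in irradiated cultures with DL1 and 95.2, 86.5 and 87.6 FPKM in controls with DL1 (0.033 ± 0.071, adjusted p = 0.825). In the test of the difference between the changes with and without DL1, no gene of these 2 lists passed in limma, and 4 of the replication and 24 of the mitosis genes had an unadjusted p under 0.05, against 10.2% of all genes. Of 38 DNA damage signalling and repair genes 0 passed with DL1 in limma (8 unadjusted), and 32 were below 0 (median -0.057). For 15 of the 38 the irradiated cultures with DL1 lay below the controls without overlap, against 17.6% of all genes. Fitted on the 6 cultures with DL1 alone, 2 of the 38 fell. Without DL1, 22 fell and 1 rose, against 15.8% and 13.1% of all genes.

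In the stress and signalling lists, counts with DL1 stand beside 3.13% of all genes called and 18.5% at an unadjusted p under 0.05. Of 27 tested p53 targets 1 passed, Gadd45a, a growth arrest gene (0.32 ± 0.069, adjusted p = 0.0292, and up to 0.128 without any single library but irradiated replicate 3). Cdkn1a, the p21 gene and a p53 target, had 47.2, 48.0 and 52.9 FPKM in irradiated and 52.7, 60.4 and 51.5 FPKM in control cultures (-0.15 ± 0.13, adjusted p = 0.554). Interferon response genes were above 0 for 26 of 28 (median 0.16) and none passed in limma (9 unadjusted), although the irradiated cultures lay above the controls without overlap for 16 of the 28, against 15.2% of all genes. Of these 28 genes 2 rose in the fit on the 6 cultures alone, and 5 with array weights. Over all 11960 genes 652 rose in the former and 974 in the latter. Gbp3 had the smallest p in the fit of all 12 (0.29 ± 0.079, adjusted p = 0.0715). Of 19 dendritic cell and MHC class II genes (median 0.23, 5 unadjusted) none passed in limma, but 7 rose in the fit on the 6 cultures alone and 5 with array weights. No gene passed in limma among 18 AP-1 and immediate early genes (0.13, 4 unadjusted) or 16 G1 regulators (-0.017, 4 unadjusted). The same held for 13 heat shock genes (-0.12, 5 unadjusted), 41 oxidative phosphorylation genes (-0.049, 1 unadjusted), 21 cholesterol genes (-0.042, 5 unadjusted) and 7 NK and cytotoxic genes (-0.28, 3 unadjusted). Among 16 chemokine and receptor genes the receptor gene Cxcr4 rose by a small amount (0.20 ± 0.046, adjusted p = 0.0367, and up to 0.150 without any 1 library).

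Genes of other lineages were tested in small lists, in which 1 call already exceeds the 3.13% of all genes. Among mast cell, basophil and eosinophil genes 2 of 12 tested rose, Cd63 and the histamine-forming enzyme gene Hdc (0.34 ± 0.079, adjusted p = 0.0367, lost without any 1 library, up to 0.170). Control replicate 3 had 41.4 FPKM of the mast cell protease gene Mcpt4, against 6.03 to 12.1 FPKM in irradiated cultures and 4.47 and 13.9 FPKM in the other controls. Of 8 megakaryocyte genes the thrombin receptor gene F2rl3 fell (-0.39 ± 0.086, adjusted p = 0.0322, up to 0.153 without control replicate 1 or 3 or irradiated replicate 1 or 2), and of 4 erythroid genes Hemgn, a nuclear protein gene (-0.58 ± 0.14, adjusted p = 0.0440, up to 0.180 without any library but irradiated replicate 3). Fitted on the 6 cultures alone, 3 of the 8 and 1 of the 4 fell, against 345 of all 11960 genes. None of 8 lymphoid priming and B lineage genes passed in limma (4 unadjusted). Flt3, a receptor gene of lymphoid-primed progenitors, had 25.2, 20.8 and 23.9 FPKM in irradiated and 26.9, 27.2 and 33.3 FPKM in control cultures (-0.31 ± 0.13, adjusted p = 0.239). Gzmb, a granzyme gene, had 13.8, 15.2 and 13.9 FPKM in irradiated and 16.6, 16.6 and 19.7 FPKM in control cultures (-0.28 ± 0.076, adjusted p = 0.0711). None of the 5 tested stromal genes passed in limma (2 unadjusted), their list summing to 17.4 to 18.7 FPKM in irradiated and 18.3 to 19.8 FPKM in control cultures, and of 2 endothelial genes Eng fell.

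**Figure D3:**
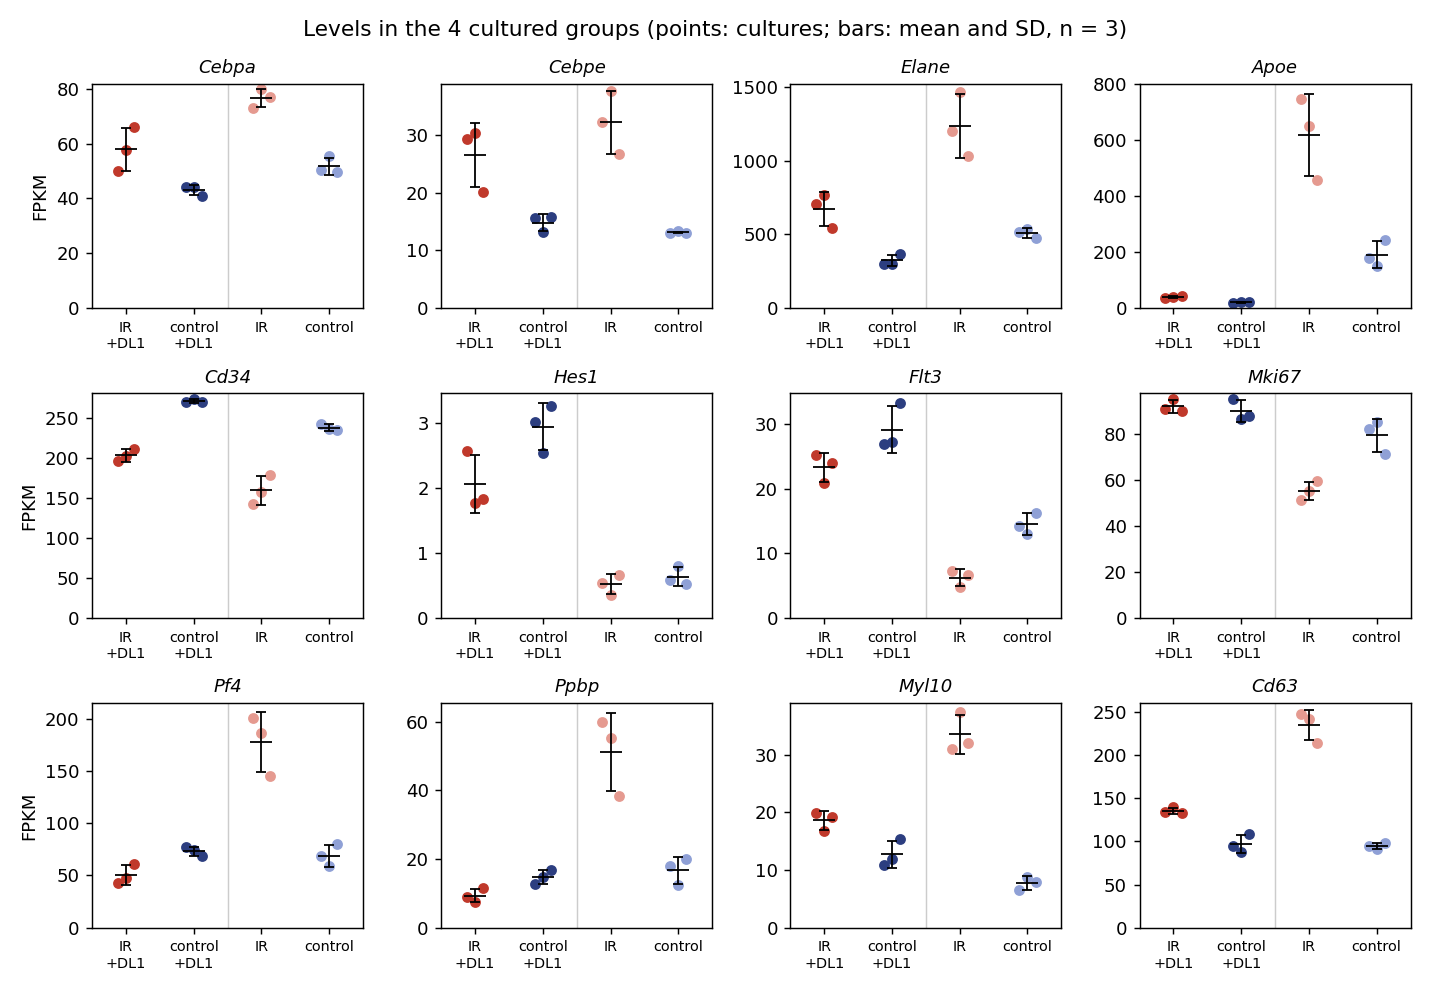
FPKM (y axes start at 0) of 12 genes in the 4 cultured groups, 1 point per culture with the mean and SD (n = 3), IR standing for irradiated. Cebpa, Cebpe, Elane and Apoe are higher and Cd34 lower in irradiated than in control cultures in both settings, whereas Mki67 overlaps between irradiated and control cultures with DL1 (89.8 to 94.8 against 86.5 to 95.2 FPKM) and Pf4 lies at 43.1 to 61.2 against 68.8 to 76.9 FPKM there.

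The change after irradiation was also set beside that in cultures without DL1, which share no library with it but do share the table, the fit and the tested genes. Deviations from the group means of same-numbered irradiated cultures with and without DL1 correlated at 0.224, 0.14 and 0.338, and those of controls at -0.05, -0.026 and 0.094, and the labels do not say whether such cultures shared a mouse. Of the same 11960 genes, 3466 (29.0%) passed without DL1, 1571 higher and 1895 lower. Both changes have the same standard error for a gene in the shared fit, which pools the spread of all cultured groups. The median SD among replicates, on the log2(FPKM + 1) scale, was 0.0716 in irradiated and 0.0558 in control cultures with DL1. Without DL1 it was 0.1025 and 0.0764. In separate fits on the 6 cultures of each setting, 997 genes passed with DL1 and 1555 without, the latter fit added after the data were seen. Counts called in both settings, and shares of them, therefore depend on the fit. The SD of log2 fold changes over all genes was 0.18 with DL1 and 0.25 without. Of the 296 genes that rose with DL1, 292 had the same direction and 267 also rose without DL1, and of the 78 that fell, 73 had the same direction and 53 also fell. None of the 374 was called in the opposite direction. The 320 genes called the same way are 85.6% of the list with DL1 and 9.23% of the list without. Log2 fold changes correlated across the 11960 genes at r = 0.70 (genes are not independent, and no p is given). For 185 of the 296 and 31 of the 78 the change was smaller with DL1 than without. By list, the monocyte and macrophage genes had a median of 0.57 with DL1 and 0.83 without, where 19 of 25 rose, and the lysosomal genes 0.24 with and 0.57 without, where 23 of 26 rose. The early granulocyte genes had medians of 0.59 with and 0.63 without DL1, and the late neutrophil genes 0.63 with and 0.60 without. In these 4 lists the change of 1 gene, Cd63, differed between the settings at an adjusted p under 0.05.

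**Figure D4:**
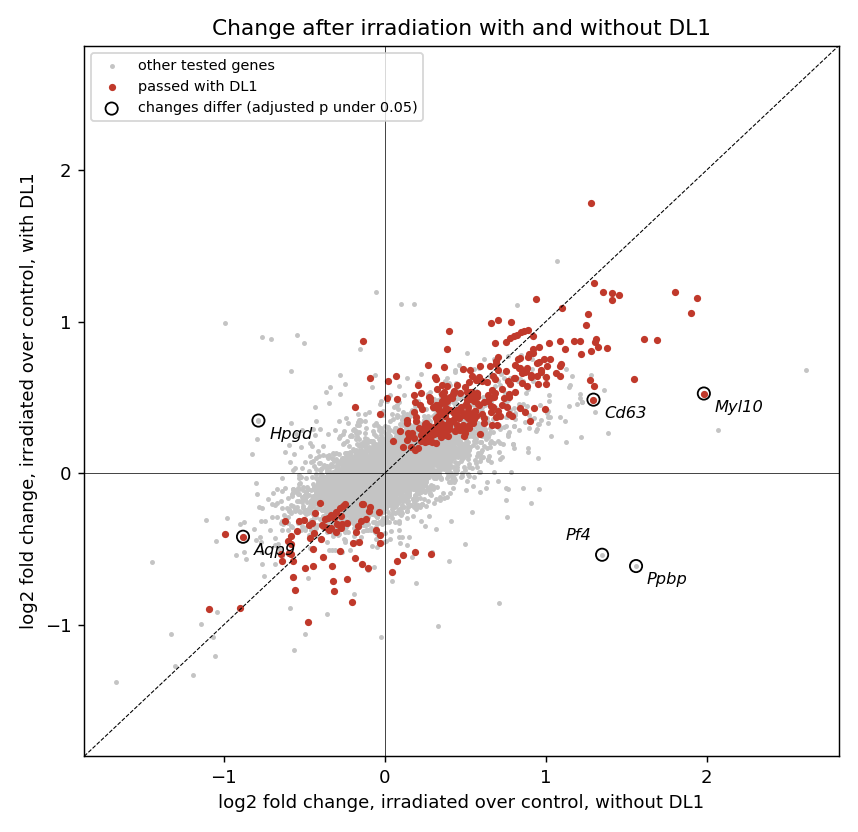
Log2 fold change of each tested gene, irradiated over control, in cultures with DL1 (y axis) against cultures without DL1 (x axis), with genes that passed with DL1 in red, the 6 genes whose changes differed circled and the line of equal change dashed. Most red points lie above 0 on both axes or below 0 on both, and Pf4 and Ppbp lie above 0 on the x axis and below 0 on the y axis.

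The test of the difference itself called 6 of 11960 genes (0.0502%), with 1225 (10.2%) at an unadjusted p under 0.05. Cd63 and Myl10, a myosin light chain gene, rose in both settings and less with DL1. For Myl10 the rise with DL1 (0.53 ± 0.13, adjusted p = 0.0463) was lost without any single library but control replicate 3 (adjusted p up to 0.196), without the filter on the mean (0.111) and without the mean-variance trend (0.0549). Aqp9, a water and glycerol channel gene, fell in both and less with DL1 (-0.42 ± 0.049 with DL1, adjusted p = 0.00245). The platelet chemokine genes Pf4 and Ppbp rose without DL1 and were lower in irradiated cultures with DL1. There they did not pass in the shared fit (-0.54 ± 0.15, adjusted p = 0.0710, and -0.61 ± 0.20, adjusted p = 0.125). In limma's fit on the 6 cultures with DL1 alone both passed as lower (adjusted p = 0.0325 for Pf4 and 0.0429 for Ppbp). Hpgd, a prostaglandin dehydrogenase gene chosen after its values were seen, fell without DL1 and did not pass with it (0.35 ± 0.12, adjusted p = 0.138). The count of 6 was 4 without control replicate 1, 3 without control replicate 2 or 3, 1 without irradiated replicate 1, 0 without irradiated replicate 2 and 4 without irradiated replicate 3. The test treats all 12 cultures as separate. With the culture number as a replicate block, Pf4, Myl10, Cd63 and Ppbp passed and Aqp9 and Hpgd did not (adjusted p = 0.0835 for each).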

How the data were processed

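The authors deposited a table of FPKM values per gene for the 12 cultured libraries, made with TopHat 1.4.1, Cufflinks 1.3.0 and Cuffdiff per the submitters' processing notes. These list hg19, a human build, for samples labelled mouse. Annotation and any scaling between libraries are otherwise not given in the sources used here. FPKM carry no counts, so depth is known only relative to a library and no count-based test was used. The table of freshly sorted cells was not used. Columns were mapped by title, one with its replicate number before DL1, and 0 columns were left unmapped. Controls were taken from titles, since their source field names irradiated cells. Names in capitals were matched to mouse symbols (88.85% of 25629).

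Genes with a mean of at least 1 FPKM over the 6 cultures with DL1 were tested on log2(FPKM + 1) in limma (3.58.1, run under R 4.3.3) with its mean-variance trend, all 4 cultured groups in one fit and Benjamini-Hochberg adjustment at 0.05. A fold change on this scale understates the change of low genes. Scripts were tested on simulated data. Named genes are the 15 highest and 15 lowest fold changes among called genes without overlap of the groups, the 4 members with the smallest p in each list, those with the strongest difference between settings and a fixed set of 12. Members and the 31 lists (774 entries, 7 not used) were chosen with earlier results of these data known. Promoter sequences come from RefSeq (GRCm38.p6). Alternatives are given at the end. The FPKM columns have no batch label.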

Additional observations from a re-analysis of the deposited data

Results flagged for a closer look

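Changes after irradiation that differed between cultures with and without DL1 are given as the change with DL1 minus the change without, on the log2 scale, from limma's test of that difference, with n = 3 cultures per group. For Ppbp it was -2.17 ± 0.28 (adjusted p = 0.0142), with 9.09, 7.58 and 11.5 FPKM in irradiated and 12.7, 14.7 and 16.95 FPKM in control cultures with DL1, and 59.9, 55.3 and 38.3 FPKM in irradiated and 17.8, 12.3 and 19.9 FPKM in control cultures without DL1. For Pf4 it was -1.89 ± 0.20 (adjusted p = 0.00954), with 43.1, 47.5 and 61.2 FPKM in irradiated and 76.9, 74.0 and 68.8 FPKM in control cultures with DL1, and 201, 186 and 145 FPKM in irradiated and 68.3, 58.7 and 79.8 FPKM in control cultures without DL1. For Myl10 it was -1.46 ± 0.18 (adjusted p = 0.0142), with changes of 0.53 with DL1 and 1.98 without. For Cd63 it was -0.81 ± 0.10 (adjusted p = 0.0142), with changes of 0.49 with DL1 and 1.296 without. For Hpgd it was 1.13 ± 0.16 (adjusted p = 0.0371), with changes of 0.35 with DL1 and -0.79 without. For Aqp9 it was 0.46 ± 0.070 (adjusted p = 0.0464), with changes of -0.42 with DL1 and -0.88 without. When the 6 libraries with DL1 were left out in turn, the difference passed in 5 fits for Pf4, 4 for Myl10, 3 for Cd63, 2 for Ppbp, 1 for Hpgd and 0 for Aqp9. With the culture number as a replicate block, Aqp9 and Hpgd did not pass (adjusted p = 0.0835 for each).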

How the results depend on the processing

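Counts are genes changed, higher and lower with DL1, then genes whose change differs with and without DL1, against 374, 296, 78 and 6. Without a filter on the mean, 222 genes changed (166 higher) and 3 differed. With a pseudocount of 5, 12 differed. In the fit on the 6 cultures with DL1 alone, 997 changed (652 higher, 345 lower). With array weights, whose estimation stopped before it converged, 1672 changed (974 higher, 698 lower) and 21 differed. Leaving out 1 library with DL1 at a time gave 106 to 283 changed, 91 to 234 higher, 15 to 49 lower and 0 to 4 that differed. Without DL1, 3466 genes changed in the shared fit and 1555 in a fit on those 6 cultures, an alternative added after the data were seen. The cause of these shifts was not tested.

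Same-numbered irradiated and control cultures with DL1 had deviations from their group means that correlated at -0.125, 0.086 and -0.15. Same-numbered irradiated cultures with and without DL1 correlated at 0.224, 0.14 and 0.338, and such controls at -0.05, -0.026 and 0.094. Differently numbered irradiated cultures with and without DL1 ranged from -0.24 to 0.042, below the same-numbered ones. Such controls ranged from -0.091 to 0.131, around the same-numbered ones. Over all pairs of groups, differently numbered cultures ranged from -0.424 to 0.313. Whether same-numbered cultures shared a mouse was not tested, and the labels do not say. With the number as a replicate block 345 genes changed (277 higher, 68 lower) and 6 differed, 4 of them among the 6 reported (Aqp9 and Hpgd were lost), and 519 (414 higher, 105 lower) with the block in the fit on the 6 cultures. Counts stayed within 1.5 times of those reported for every alternative not given here.

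Of 143 named genes tested, 63 passed. Of these 26 passed under every alternative, 37 were lost without at least 1 library, and none of the 143 reversed. Depth in reads is unknown, and irradiated replicate 2 with DL1 was the shallowest library.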

Other observations

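Rows outside the naming rule were looked at after their values had been seen, as neighbours of named genes in family or locus. Gimap9, of the same GTPase family as Gimap6 and Gimap1, had 8.27, 7.94 and 7.82 FPKM in irradiated and 11.5, 11.3 and 12.8 FPKM in control cultures with DL1 and fell (-0.51 ± 0.069, adjusted p = 0.00448 in limma). Gimap5 had 0.935, 0.926 and 1.22 FPKM in irradiated and 1.33, 1.44 and 1.62 FPKM in control cultures and did not pass (-0.28 ± 0.11, adjusted p = 0.182). The row listed as MEG3,MIR770, which joins a non-coding RNA gene of the Dlk1 locus with a microRNA gene, had 1.88, 2.43 and 3.02 FPKM in irradiated and 3.85, 3.80 and 5.31 FPKM in control cultures and fell (-0.63 ± 0.13, adjusted p = 0.0284). As for Rian and Dlk1, control replicate 3 had the highest value. Of the 374 genes called with DL1, 320 belong to none of the 31 lists.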
